A study of Mus musculus with 6 samples.

Results

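Small leucine-rich proteoglycans (SLRPs) are secreted proteins with a short chain of leucine-rich repeats, and most of them carry chondroitin, dermatan or keratan sulfate chains. They bind collagen fibrils in the matrix around fibroblasts and set the spacing and width of the fibrils. Several also hold growth factors of the TGF-β family or bind cell surface receptors. The genes described here are 9 members chosen by name, namely Dcn (decorin), Bgn (biglycan) and Aspn (asporin) of class I, Lum (lumican), Fmod (fibromodulin), Prelp (the proline- and arginine-rich end leucine-rich repeat protein) and Omd (osteomodulin) of class II, Ogn (osteoglycin, also called mimecan) of class III and Podn (podocan) of class V. They are 9 of the 55401 gene identifiers in the count files, and each was found by matching its symbol to its Ensembl identifier. All 9 passed the filter on low counts.

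The libraries came from NIH3T3, an established line of mouse embryo fibroblasts, and all were made from polyA RNA. EV libraries (n = 2) came from cells with an empty vector kept in DMSO. The TC library (n = 1) came from cells with TAZ-CAMTA1 (TC), the fusion of epithelioid hemangioendothelioma that joins TAZ to CAMTA1 and acts through TEAD transcription factors, also kept in DMSO. TC + ATA libraries (n = 3) came from TC cells given aurintricarboxylic acid (ATA) at 10 μM for 48 h, with treatment begun 16 h after seeding. The comparison of TC with EV asks how the fusion changed RNA levels, and the comparison of TC + ATA with TC asks how ATA changed them in cells with the fusion. EV cells given ATA were not analysed here, so the action of ATA without the fusion is not covered.

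Library totals lay between 58471484 and 74413193 counts, at which 3 counts correspond to 0.0393 to 0.0528 CPM (counts scaled to a common library size after TMM normalization). Wwtr1, the mouse gene for TAZ, was at 110.3 and 104 CPM in EV, 139 CPM in TC and 129.0 to 131 CPM in TC + ATA, and the counts do not separate fusion RNA from that of the cells' own gene. Library labels do not say whether replicates were separate cultures, so p-values measure only the spread between these libraries. They also do not say whether the TC cells were a pool or a clone. Other differences between the EV and TC cells therefore cannot be told apart from the fusion. TC rests on 1 library, which enters both comparisons in opposite roles, so that a deviation of this library would move them in opposite directions. Fibroblast markers were detected in every library (6 of 6 genes at 1 CPM or more), with a summed level of 11418 to 13018 CPM in EV, 16173 CPM in TC and 15138 to 16156 CPM in TC + ATA. Of these markers Thy1 (log2 fold change −1.47, adjusted p = 1.03e-05, edgeR) and Pdgfra (−1.20, adjusted p = 1.31e-05) were lower in TC than in EV, while Vim (0.64, adjusted p = 0.00658) and Col1a1 (0.53, adjusted p = 0.0103) were higher. The summed level of 5 endothelial markers, none of which reached 1 CPM in every library, was 1.69 to 2.49 CPM in EV, 3.85 CPM in TC and 3.06 to 3.77 CPM in TC + ATA, and Cdh5 of this list was higher in TC than in EV (1.55, adjusted p = 0.0385). Epithelial markers (1 of 4 detected, Krt14) summed to 1.25 to 1.99, 3.52 and 2.41 to 3.75 CPM in the same order, and leukocyte markers (1 of 4, Cd68) to 9.43 to 9.47, 6.56 and 4.45 to 9.66 CPM. SLRP genes are also used by cartilage, bone and tendon cells. Of markers of those cells, Sox9 was the only chondrocyte gene detected of 4 (sums 54.8 to 56.7, 47.7 and 30.8 to 33.7 CPM), Runx2 the only osteoblast gene of 4 (34.5 to 38.2, 53.1 and 43.1 to 44.0 CPM, with Ibsp at 0 counts in every library) and Mkx the only tenocyte gene of 3 (9.02 to 11.0, 8.90 and 6.86 to 7.88 CPM). Krt14 (1.09, adjusted p = 0.0486) and Runx2 (0.55, adjusted p = 0.00182) were higher in TC than in EV, and Sox9 was lower in TC + ATA than in TC (−0.56, adjusted p = 0.0259). The part of these markers in the results was not tested. In bulk RNA, fewer cells of a kind and less RNA per cell cannot be told apart.

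In TC against EV, 5 of the 9 genes changed at an adjusted p of 0.05 or less (edgeR's quasi-likelihood test, Benjamini-Hochberg over 18539 genes). Ogn and Prelp rose, and Aspn, Dcn and Lum fell. The share of all genes called in this comparison was 28.0%, with 14.8% higher and 13.2% lower, so that a call was common among all genes. The median log2 fold change of the 9 genes was −0.73, and that of all genes was −0.03. In TC + ATA against TC, Aspn, Fmod and Prelp were called higher and none of the 9 lower. The median was 0.75 against 0.00 for all genes. Only 0.583% of all genes were called there, 0.426% higher and 0.156% lower, and for the members no fall was seen there at an unadjusted p under 0.05 or by DESeq2. Without regard to a test, the TC library lay above both EV libraries for 3 members (Fmod, Prelp and Ogn) and below both for 5 (Dcn, Aspn, Lum, Omd and Podn), where 38.9% of all genes lay above and 40.0% below. For 8 members the 3 TC + ATA values were all higher than the TC value, and for Lum they were lower, where 30.5% of all genes lay above and 32.7% below.

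**Figure D1:**
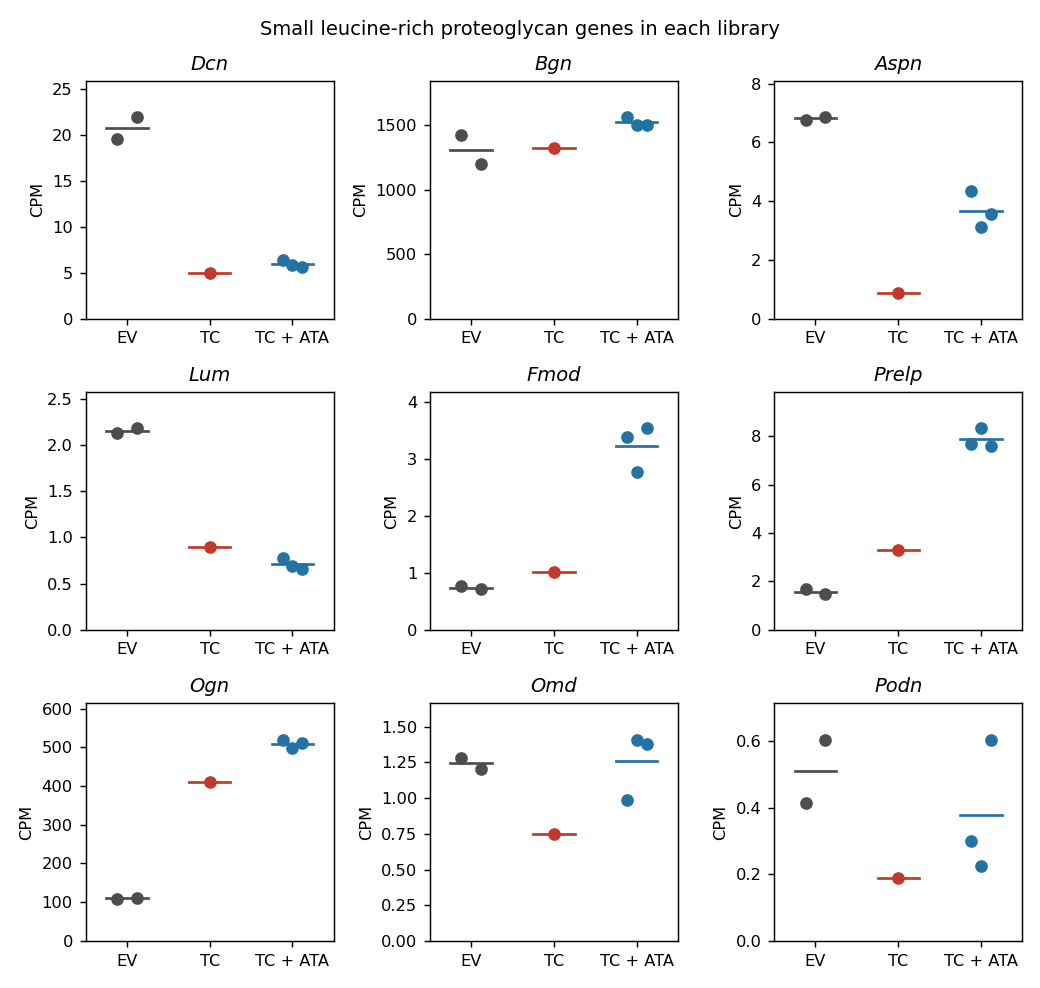
Level of each of the 9 genes in each library, in CPM on a linear axis from 0, with 1 point per library and a line at the group mean (EV n = 2, TC n = 1, TC + ATA n = 3). Dcn, Aspn and Lum were lower in TC than in EV, Ogn and Prelp were higher, and Aspn, Fmod and Prelp were higher in TC + ATA than in TC.

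Class I holds the dermatan and chondroitin sulfate proteoglycans decorin and biglycan, together with asporin, which carries no such chain and has a run of aspartate residues. Dcn (ENSMUSG00000019929), the decorin gene, whose protein binds type I collagen and TGF-β, stood at 19.5 and 21.9 CPM in the EV libraries, 4.91 CPM in TC and 6.37, 5.87 and 5.61 CPM in TC + ATA. Its TC and TC + ATA libraries all lay far below both EV libraries. Dcn fell 4.21-fold in TC (log2 fold change −2.07, SE 0.15, 95% confidence interval −2.41 to −1.74, adjusted p = 1.39e-05). The 3 TC + ATA libraries were slightly above the TC library, and the difference did not pass the test (0.27, interval −0.03 to 0.58, adjusted p = 0.580). Against EV, TC + ATA was still 3.48-fold lower (−1.80, SE 0.10, adjusted p = 1.79e-06).

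Aspn (ENSMUSG00000021388), the asporin gene, whose product competes with decorin for collagen and also binds TGF-β, was at 6.78 and 6.86 CPM in EV and at 0.864 CPM in TC. That TC value rests on 60 counts and has an exact Poisson interval of 0.660 to 1.11 CPM, which like the other such intervals covers counting error only. The TC + ATA libraries gave 4.35, 3.12 and 3.58 CPM, above TC and below EV without overlap. The fall in TC was the largest of the 9 genes, at 7.87-fold (−2.98, SE 0.27, interval −3.58 to −2.37, adjusted p = 5.00e-05). The rise from TC to TC + ATA was 4.24-fold (2.08, SE 0.25, interval 1.51 to 2.66, adjusted p = 0.0107). TC + ATA remained 1.86-fold below EV (−0.89, SE 0.16, adjusted p = 0.00208). Without TC + ATA replicate 3 the rise under ATA missed the threshold (adjusted p = 0.0815).

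Bgn (ENSMUSG00000031375), the biglycan gene, whose protein also binds toll-like receptors, was far more abundant than the other members. Its levels were 1419.8 and 1201.0 CPM in EV, 1323.2 CPM in TC and 1560.2, 1498.2 and 1502.8 CPM in TC + ATA. The TC library lay between both EV libraries, while each TC + ATA library was above every other library. The log2 fold change of TC against EV was 0.01 (SE 0.12, interval −0.25 to 0.28, adjusted p = 0.947). Each EV library alone gave another call for Bgn in TC, since the log2 fold change was 0.13 (adjusted p = 0.0160) without EV replicate 1 and −0.10 (adjusted p = 0.0436) without EV replicate 2. TC + ATA was 0.20 above TC on the log2 scale (interval −0.05 to 0.45, adjusted p = 0.630) and 0.21 above EV (interval 0.02 to 0.41, adjusted p = 0.0873). The first of these values was called without either EV library (adjusted p = 0.00266 and 0.00191) and in a fit of TC and TC + ATA alone (0.00166). The second was called without either EV library (adjusted p = 5.99e-06 and 0.0131) and by DESeq2 (0.0239). In the fits without an EV library, EV had 1 library, which was assumed to vary like the TC + ATA libraries.

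Class II holds the keratan sulfate proteoglycans lumican, fibromodulin and osteomodulin, and Prelp, which links collagen to heparan sulfate at basement membranes. Lum (ENSMUSG00000036446), the lumican gene, which keeps collagen fibrils thin and regular in the cornea and skin, was at 2.13 and 2.18 CPM in EV, 0.893 CPM in TC and 0.774, 0.691 and 0.661 CPM in TC + ATA. It was the only member whose TC + ATA libraries all lay below the TC library, whose own counting interval of 0.685 to 1.15 CPM took in 2 of the 3 values. Lum fell 2.41-fold in TC (−1.27, SE 0.32, interval −2.00 to −0.53, adjusted p = 0.0180). TC + ATA against TC gave −0.34 (interval −1.02 to 0.35, adjusted p = 0.786), and TC + ATA stood 3.04-fold below EV (−1.60, SE 0.23, adjusted p = 0.000605).

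Fmod (ENSMUSG00000041559), the fibromodulin gene, whose protein guides the cross-linking of collagen and binds close to the lumican site, was low in the absence of ATA. It was at 0.775 and 0.708 CPM in EV and 1.01 CPM in TC, and reached 3.38, 2.78 and 3.54 CPM in TC + ATA. The TC + ATA values were all well above the other 3 libraries, and the TC value, from 70 counts, had a counting interval of 0.786 to 1.27 CPM. TC did not differ from EV by the test (0.44, interval −0.21 to 1.10, adjusted p = 0.305). TC + ATA was 3.20-fold above TC (1.68, SE 0.28, interval 1.04 to 2.31, adjusted p = 0.0426) and 4.35-fold above EV (2.12, SE 0.22, adjusted p = 8.42e-05). The call against TC was near its threshold, and it was lost when any of the TC + ATA libraries was left out (adjusted p = 0.154, 0.132 and 0.234 without replicates 1, 2 and 3), with library totals in place of TMM (0.0523) and with a filter of 1 CPM in place of filterByExpr (0.0538).

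Prelp (ENSMUSG00000041577) was the only member called higher at both steps with all libraries. Its levels were 1.68 and 1.47 CPM in EV, 3.28 CPM in TC and 7.69, 8.32 and 7.59 CPM in TC + ATA. The groups followed each other without overlap. Prelp rose 2.08-fold in TC (1.06, SE 0.18, interval 0.65 to 1.46, adjusted p = 0.00218) and a further 2.40-fold in TC + ATA (1.26, SE 0.17, interval 0.87 to 1.65, adjusted p = 0.0178). From EV to TC + ATA the change was 4.99-fold (2.32, SE 0.14, adjusted p = 3.16e-06). The rise over TC was not called when any of the TC + ATA libraries was left out (adjusted p = 0.0858, 0.116 and 0.113 without replicates 1, 2 and 3), while its log2 fold change stayed between 1.22 and 1.30 over all alternatives.

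Omd (ENSMUSG00000048368), the osteomodulin gene, known from bone and tooth matrix, was at 1.28 and 1.21 CPM in EV, 0.749 CPM in TC and 0.985, 1.41 and 1.38 CPM in TC + ATA. TC was the lowest library, and EV and TC + ATA overlapped. Neither the TC to EV difference (−0.73, interval −1.57 to 0.10, adjusted p = 0.182) nor the TC + ATA to TC difference (0.75, interval −0.05 to 1.55, adjusted p = 0.551) passed the test. TC + ATA against EV was 0.02 (interval −0.57 to 0.61, adjusted p = 0.964).

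Ogn (ENSMUSG00000021390), the osteoglycin gene of class III, whose protein regulates fibril width and was first isolated from bone, was the second most abundant member and the one with the largest rise in TC. It stood at 108.9 and 111.8 CPM in EV, 410.3 CPM in TC and 520.0, 498.5 and 510.4 CPM in TC + ATA. EV libraries were far below the rest, and the TC + ATA libraries all exceeded the TC library. Ogn rose 3.72-fold in TC (1.89, SE 0.08, interval 1.71 to 2.08, adjusted p = 9.45e-07). TC + ATA was 1.24-fold above TC, which was not called (0.31, SE 0.08, interval 0.13 to 0.49, adjusted p = 0.176) with all libraries. It was called without EV replicate 1 or 2 (adjusted p = 0.000570 and 0.000440), in a fit of TC and TC + ATA alone (0.000337) and by DESeq2 (0.0277). Against EV the difference was 4.62-fold (2.21, SE 0.07, adjusted p = 1.10e-07), and every TC + ATA library lay further from EV than the TC library did. Podn (ENSMUSG00000028600), of class V, whose product restrains the growth of smooth muscle cells, was close to the detection limit, with 13 to 46 counts a library. It was at 0.414 and 0.603 CPM in EV, 0.187 CPM in TC and 0.299, 0.226 and 0.604 CPM in TC + ATA, and none of its comparisons passed the test (TC against EV −1.43, interval −3.13 to 0.26, adjusted p = 0.197).

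**Figure D2:**
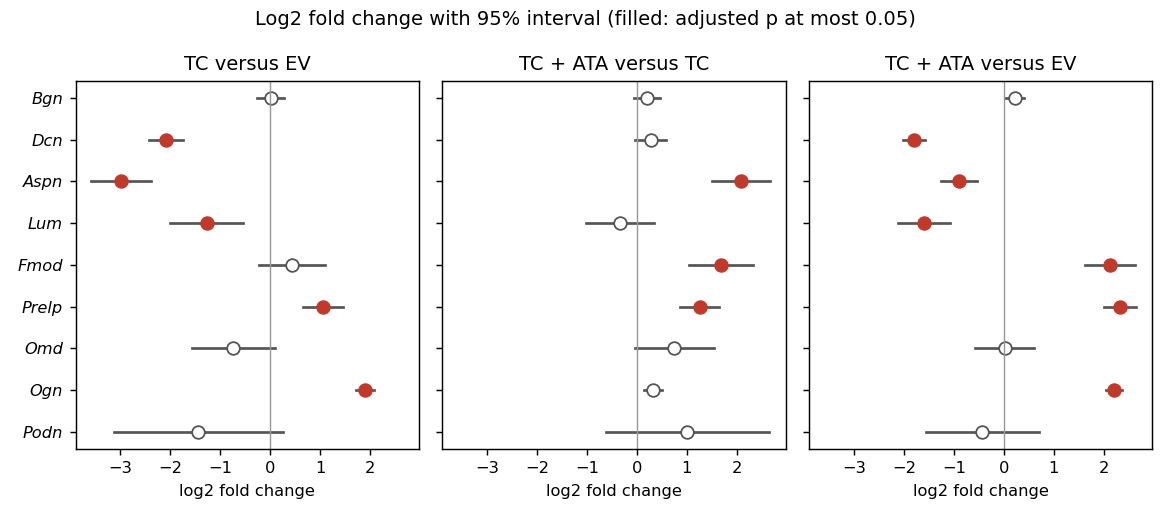
Log2 fold change of each of the 9 genes in TC versus EV, TC + ATA versus TC and TC + ATA versus EV (points) with 95% confidence intervals (bars), filled where the adjusted p was 0.05 or less. Dcn and Lum were low in both fusion groups, Ogn was high in both, and Aspn moved down in TC and up in TC + ATA.

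Set side by side, the 3 comparisons share libraries and are not independent. TC + ATA against EV called 3 members higher (Prelp, Ogn and Fmod) and 3 lower (Dcn, Lum and Aspn), where 36.6% of all genes were called, 18.0% higher and 18.6% lower. The TC + ATA values did not overlap with EV for 7 members, higher for 4 (Bgn, Fmod, Prelp and Ogn) and lower for 3 (Dcn, Aspn and Lum), where 28.7% of all genes lay above and 30.1% below. Of the 5 members called in TC versus EV, Aspn came closer to its EV level in TC + ATA by a called difference. Prelp moved further away by a called difference, and Dcn, Lum and Ogn gave no called difference from TC. With an absolute log2 fold change of 2 added to the adjusted p, Dcn and Aspn passed as lower in TC versus EV, where 1.27% of all genes did, and no member passed as higher, where 2.36% did. Dcn was near this limit and did not reach it without EV replicate 2 (−1.99). DESeq2 and edgeR both put Ogn below that limit. In TC + ATA versus EV, Fmod, Prelp and Ogn passed as higher by the same rule, where 2.80% of all genes did, and no member passed as lower, where 1.06% did.

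Compared per kilobase of exon, the members spanned more than 3 orders of magnitude. Biglycan RNA was at 215 ± 25.4 CPM per kb (SD, n = 2) in EV, 217 CPM per kb in TC and 249 ± 5.67 CPM per kb (SD, n = 3) in TC + ATA, and ranked first in every library. Ogn ranked second throughout, with 43.0 ± 0.805, 160 and 199 ± 4.20 CPM per kb. Podn was the lowest throughout, with means of 0.119, 0.0439 and 0.0881 CPM per kb. Between these ends the order changed. Prelp was in place 7 in EV (0.436 CPM per kb) and in place 3 in TC (0.909) and TC + ATA (2.18). Dcn went from place 3 in EV (3.55 CPM per kb) to place 4 in TC (0.842) and to place 5 or 6 in TC + ATA (1.02), and Lum from place 5 (0.879) to 6 (0.365) to 8 (0.290). In TC + ATA, Dcn and Fmod (0.977 CPM per kb) overlapped between libraries, and no other neighbours in the order overlapped within EV or within TC + ATA. In TC, Aspn, Lum, Omd and Fmod lay within 0.305 to 0.367 CPM per kb, where their counting intervals overlapped and the order is not settled. The counting intervals of Prelp and Dcn per kb also overlapped in TC, so their places 3 and 4 there are not settled either.

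**Figure D3:**
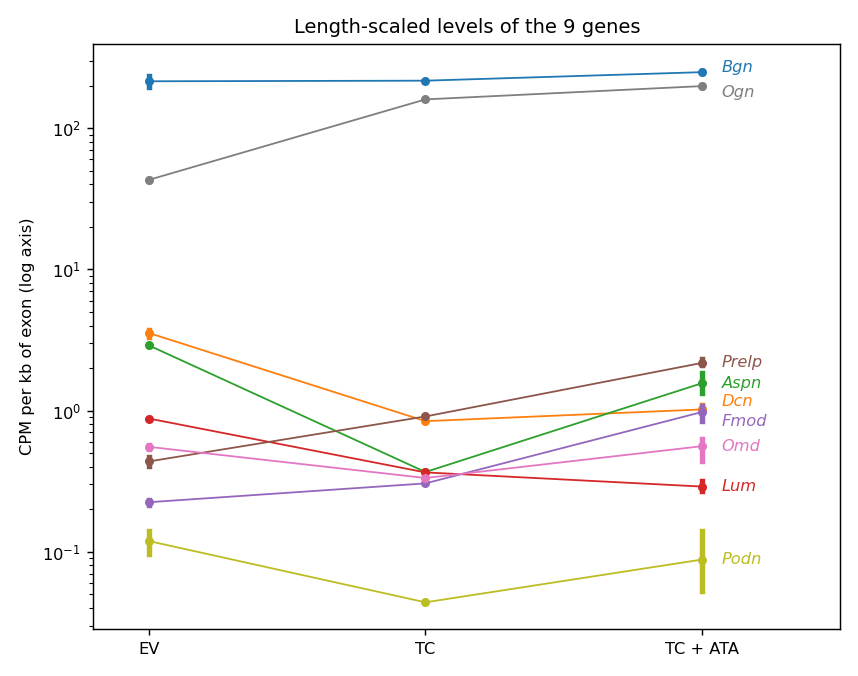
Level of the 9 genes in CPM per kilobase of exon (log axis) in EV, TC and TC + ATA. Points are group means, and lines only join the same gene. Bars run from the lowest to the highest library where a group has more than 1 library. Bgn and Ogn stood apart from the other 7 genes, and Ogn approached Bgn from 43.0 CPM per kb in EV to 199 CPM per kb in TC + ATA.

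The make-up of the family therefore differed between groups mainly through Ogn. Summed over the 9 genes, the level was 284 and 249 CPM per kb in EV, 380 CPM per kb in TC and 465, 446 and 452 CPM per kb in TC + ATA. Bgn gave 82.1% and 79.0% of that sum in EV, 57.1% in TC and 55.0%, 55.0% and 54.5% in TC + ATA. Ogn gave 15.0% and 17.5%, then 42.1%, then 43.5%, 43.5% and 44.0%. The 7 other genes together made up only a few percent of the sum in any library. In all, the 9 genes took 0.157% and 0.146% of the counts in EV, 0.169% in TC and 0.204%, 0.198% and 0.202% in TC + ATA. These sums and shares are descriptions of the libraries and carry no test.

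Of the members, 7 lie in 3 clusters of family genes (GRCm38), and the members of a cluster did not always move together. On chromosome 13, Ecm2 (49504810 to 49532789), Aspn (49544443 to 49567565), Omd (49582462 to 49592822) and Ogn (49608046 to 49624501) follow each other on the plus strand within 119692 bases. Going along them in TC versus EV, Aspn fell 7.87-fold, Omd gave −0.73 without a call and Ogn, 15223 bases beyond Omd, rose 3.72-fold. All 4 lie inside the gene body of Cenpp on the minus strand, which had only 167 to 431 counts and shares 7 exonic bases with Aspn and none with Omd or Ogn. On chromosome 10, Dcn (97479609 to 97518143, plus strand) and Lum (97565128 to 97572703, plus strand) are 46984 bases apart and both fell in TC. The next 2 genes there, Kera and Epyc, did not pass the filter. On chromosome 1, Prelp (133910304 to 133921414, minus strand) and Fmod (134037254 to 134048277, plus strand) are 115839 bases apart. They and Aspn were the members called higher in TC + ATA than in TC. Prelp shares 350 of its 3615 exonic bases with the antisense gene Gm15851, which had at most 2 counts in any library. Bgn lies on the X chromosome (73483602 to 73495933, plus strand) and Podn on chromosome 4 (108014791 to 108096445, minus strand). Scp2, on the same strand as Podn, overlaps part of its gene body and had 4929 to 9229 counts a library. It shares no exonic bases with Podn.

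**Figure D4:**
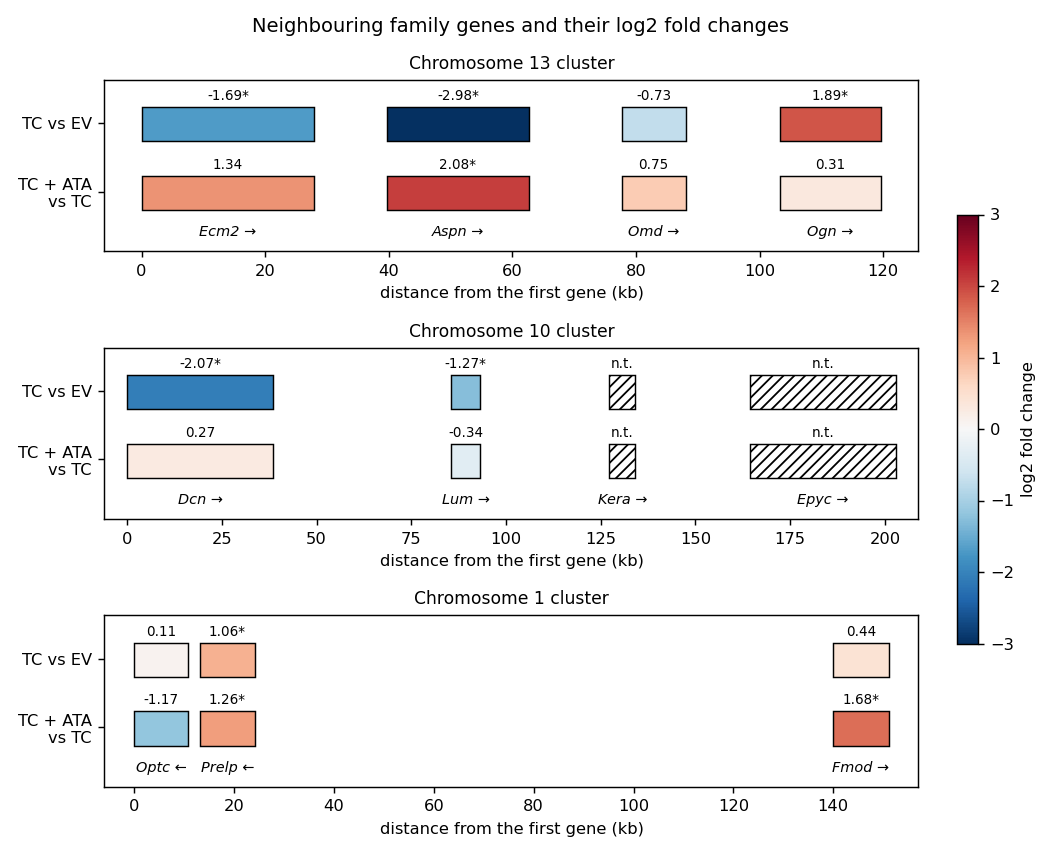
The 3 clusters, drawn to scale as distance from the first gene in kilobases, with arrows for the strand and boxes coloured by log2 fold change in TC versus EV (upper row) and TC + ATA versus TC (lower row), where * marks an adjusted p of 0.05 or less and n.t. a gene not tested. On chromosome 13, Aspn (−2.98) and Ogn (1.89) had opposite signs in TC versus EV.

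Promoter sequences of the neighbours that moved in opposite directions, Aspn and Ogn, and of the pair on chromosome 1, Prelp and Fmod, are shown because their RNA levels separate within a cluster or rise together under ATA. Each is 300 bases long, from 250 bases before the RefSeq start to 50 bases from it, read 5′ to 3′ on the strand of the gene (GRCm38.p6). Capitals mark GGAATG, the core motif that TEAD factors bind, searched on both strands.
Aspn (chr13:49544193-49544492, plus strand): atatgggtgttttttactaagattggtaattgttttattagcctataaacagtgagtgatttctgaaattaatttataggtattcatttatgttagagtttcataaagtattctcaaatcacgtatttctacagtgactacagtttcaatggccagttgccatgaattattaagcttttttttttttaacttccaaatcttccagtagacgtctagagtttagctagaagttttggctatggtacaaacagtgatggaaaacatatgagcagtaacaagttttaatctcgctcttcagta
Ogn (chr13:49607765-49608064, plus strand): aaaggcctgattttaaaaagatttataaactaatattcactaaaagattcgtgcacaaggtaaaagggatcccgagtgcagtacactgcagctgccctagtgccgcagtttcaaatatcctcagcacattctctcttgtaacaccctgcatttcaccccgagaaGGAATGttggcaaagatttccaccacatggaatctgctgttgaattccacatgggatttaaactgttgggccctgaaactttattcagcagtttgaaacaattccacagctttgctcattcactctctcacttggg
Prelp (chr1:133921352-133921651, minus strand): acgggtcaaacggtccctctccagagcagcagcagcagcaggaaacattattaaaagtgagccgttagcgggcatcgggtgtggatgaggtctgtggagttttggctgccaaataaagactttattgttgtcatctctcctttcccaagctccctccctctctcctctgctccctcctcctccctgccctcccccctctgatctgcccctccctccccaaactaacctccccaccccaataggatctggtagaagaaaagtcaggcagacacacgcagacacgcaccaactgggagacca
Fmod (chr1:134037004-134037303, plus strand): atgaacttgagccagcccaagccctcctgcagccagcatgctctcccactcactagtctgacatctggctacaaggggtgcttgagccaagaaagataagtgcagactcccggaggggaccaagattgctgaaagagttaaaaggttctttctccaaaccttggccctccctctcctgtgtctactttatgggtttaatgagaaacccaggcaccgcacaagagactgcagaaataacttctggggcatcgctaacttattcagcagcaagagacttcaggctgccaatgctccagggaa
The motif was found once in Ogn, 86 bases before the start on the plus strand, and was absent from the windows of Aspn, Prelp and Fmod. RefSeq windows were found for 7 of the 9 members, 8 windows in all, and Ogn was the only member with a match. Of 32851 promoter windows of the mouse genome, 14.7% held the motif, and of 27025 genes 16.6% had it in at least 1 window, so a match in 1 of 7 members is near the share among all genes. A match is a run of letters and was not tested as a binding site.

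The other genes of the family were read in the same way. Of 8 genes (Kera, Epyc, Optc, Ecm2, Chad, Nyx, Tsku and Podnl1), 5 passed the filter, of which 2 rose and 1 fell in TC. Among all genes, 14.8% rose and 13.2% fell there. Tsku, the tsukushi gene, whose protein modulates TGF-β and Wnt signals, was at 21.2 and 19.1 CPM in EV, 46.2 CPM in TC and 48.7, 46.9 and 49.4 CPM in TC + ATA. It rose in TC (1.20, SE 0.09, adjusted p = 2.04e-05), as did Podnl1, the gene most like Podn, with 31.0 and 33.8 CPM in EV, 64.3 CPM in TC and 49.8, 46.4 and 45.3 CPM in TC + ATA (0.99, SE 0.09, adjusted p = 6.79e-05). Per kilobase of exon Podnl1 had group means of 9.13, 18.1 and 13.3 CPM per kb in EV, TC and TC + ATA, well above those of Podn. Ecm2, the neighbour of Aspn, had 14 to 54 counts a library. Ecm2 fell in TC (−1.69, SE 0.55, adjusted p = 0.0482), a change that DESeq2 did not call, and its value in TC + ATA against TC was 1.34 without a call (adjusted p = 0.455). Optc and Chad, with at most 22 counts, were not called, and Kera, Epyc and Nyx had at most 10 counts and were not tested. None of the 5 genes was called in TC + ATA against TC, where 0.583% of all genes were. At an unadjusted p under 0.05, a limit for which no share of all genes is given, Ecm2 was higher and Podnl1 lower (log2 fold change −0.45, interval −0.64 to −0.25). DESeq2 called 1 of the 5 lower, where it called 85 of 14718 genes lower.

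Core proteins of the family reach their final form through enzymes that build and sulfate their sugar chains. The 6 genes for the linker that starts such chains gave no call in TC (1 higher and 1 lower at an unadjusted p under 0.05, none by DESeq2), with a median of −0.12. Among all genes, 14.8% were called higher in TC and 13.2% lower. Among those with a mean of at least 1 CPM, the largest differences were those of B4galt7 (0.29, adjusted p = 0.110), B3gat3 (−0.24, adjusted p = 0.0827), Fam20b (−0.13, adjusted p = 0.280) and Xylt2 (−0.10, adjusted p = 0.457). Of 6 genes for the chondroitin chain itself, 5 were tested, and Chpf (0.46, adjusted p = 0.00674) and Csgalnact2 (0.41, adjusted p = 0.00541) rose while Csgalnact1 fell (−0.43, adjusted p = 0.0231) and Chsy1 was not called (−0.22, adjusted p = 0.157). Among 10 genes that sulfate or epimerize chondroitin and dermatan chains, 9 were tested. Dse, the epimerase that turns chondroitin into dermatan sulfate as found on decorin and biglycan, went from 91.8 and 89.0 CPM in EV to 177 CPM in TC (0.97, adjusted p = 3.57e-05) and was at 175, 175 and 162 CPM in TC + ATA. Chst7 rose as well (1.04, adjusted p = 0.000843), Ust fell (−0.71, adjusted p = 0.00201), and Dsel was not called (−0.29, adjusted p = 0.0630).

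Genes for keratan sulfate and for tyrosine sulfation, which modify lumican, fibromodulin, osteomodulin and osteoglycin, gave the highest median of these lists. Of 9 genes, 7 were tested, 4 rose and 1 fell in TC, where 14.8% of all genes rose and 13.2% fell. The median was 0.97 against −0.03 for all genes. Chst1, the sulfotransferase that adds sulfate to the galactose of keratan chains, was at 1.03 and 0.787 CPM in EV, 10.6 CPM in TC and 13.3, 12.5 and 11.7 CPM in TC + ATA. Its rise was 11.7-fold (3.55, SE 0.17, adjusted p = 1.63e-06), and TC + ATA did not differ from TC by the test (0.24, adjusted p = 0.678). B4galt4 (1.46, adjusted p = 5.27e-05), B3gnt2 (0.97, adjusted p = 0.00457) and the tyrosine sulfotransferase Tpst2 (1.03, adjusted p = 3.20e-05) rose, and its partner enzyme Tpst1 fell (−0.95, adjusted p = 5.24e-05).

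**Figure D5:**
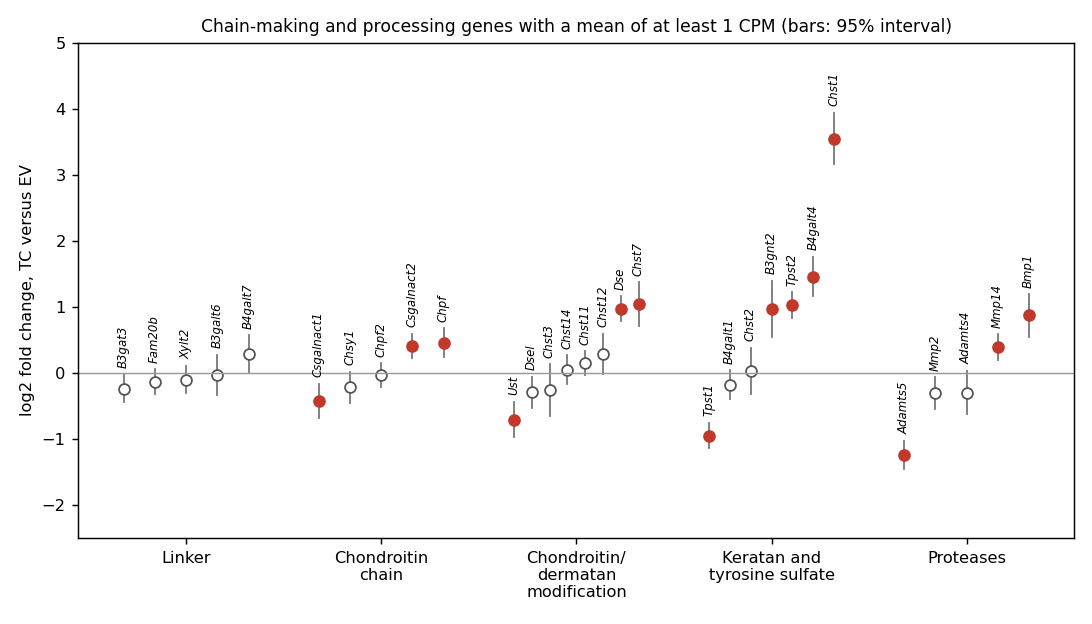
Log2 fold change in TC versus EV (points) with 95% confidence intervals (bars) for 30 genes of 5 lists with a mean of at least 1 CPM, filled where the adjusted p was 0.05 or less. Chst1 (3.55) stood highest, and none of the linker genes was called.

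Partners of the family were also compared between TC and EV. Of 8 fibril collagen genes and collagen VI genes that the proteoglycans bind, Col1a1 (0.53, adjusted p = 0.0103) and Col5a1 (0.45, adjusted p = 0.00420) rose, and the 3 collagen VI genes Col6a1 (−1.52, adjusted p = 7.89e-06), Col6a2 (−1.81, adjusted p = 5.84e-06) and Col6a3 (−0.41, adjusted p = 0.0153) fell. Of 10 ligands and receptors, 3 rose and 5 fell, where 14.8% of all genes rose and 13.2% fell. Biglycan's receptors diverged, as Tlr4 went from 21.2 and 19.3 CPM in EV to 73.6 CPM in TC (1.86, adjusted p = 1.13e-06) and Tlr2 from 16.2 and 14.7 CPM to 3.49 CPM (−2.15, adjusted p = 1.57e-05), and neither was called in TC + ATA against TC (71.8 to 72.6 CPM and 3.47 to 3.77 CPM). Decorin's receptors Egfr (−1.10, adjusted p = 0.000128) and Met (−0.45, adjusted p = 0.00356) fell, and so did Tgfb1 and Tgfb3 among the ligands, while Tgfb2 and Igf1r rose. Of 8 proteases that cut SLRPs, 7 were tested, of which Bmp1 (0.87, adjusted p = 0.00182), which trims the biglycan propeptide, and Mmp14 (0.39, adjusted p = 0.00977) rose and Adamts5 fell (−1.24, adjusted p = 1.80e-05), while Mmp2 was not called (−0.30, adjusted p = 0.0603). Of 23 other proteoglycans, 18 were tested, 4 rose (Hspg2, Gpc1, Gpc4 and Gpc6) and 4 fell (Vcan, Sdc1, Sdc3 and Tgfbr3), with a median of 0.02. Among those with a mean of at least 1 CPM, the genes that differed most were Gpc6 (2.26, adjusted p = 1.22e-06), Vcan (−1.25, adjusted p = 1.52e-05), Hspg2 (0.81, adjusted p = 0.00131) and Gpc1 (0.67, adjusted p = 0.000539). Over these 8 lists together, 19 of 70 tested genes rose and 16 fell in TC, where 14.8% and 13.2% of all genes did. None was called in TC + ATA against TC, where 0.583% of all genes were. At an unadjusted p under 0.05, 11 of the 70 were higher and 1 lower. No share of all genes is given at this limit, so the split cannot be read as particular to these lists. It also rests on the single TC library. DESeq2 called 4 higher, where it called 236 higher and 85 lower of 14718 genes.

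For each member called in TC versus EV, the gene with the most similar course over the 6 libraries was sought among 12702 genes with a mean of at least 1 CPM, as the smallest root mean square difference of log2 CPM after centring on the gene's mean. Dcn was nearest to Smox (0.0616), Lum to Ap3b2 (0.0553), Ogn to Anxa8 (0.0513) and Prelp to Ly6c1 (0.122). The median distance from Dcn over genes was 0.880, but the smallest distance of a search lies below the median by construction. Aspn had no equally close match, since its nearest gene, Smoc1, was at 0.264. Smoc1 also gave −2.92 in TC versus EV and 1.62 between TC + ATA and TC. These likenesses rest on 6 libraries in 3 groups and describe the course only.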

How the data were processed

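Bulk RNA-Seq of NIH3T3 cells was read from 6 count files, 1 per library, with groups and replicate numbers taken from the labels. The authors aligned paired-end reads of polyA libraries with HISAT2 (2.2.1 in the submitters' processing notes) to GRCm38.p6 and counted reads per gene with featureCounts, and the deposited values are raw counts without normalization. The annotation release, the use of strand and the handling of reads with several matches are not given in the sources used here, so reads shared by overlapping or near-identical genes are already part of the counts.

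Identifiers were matched to GENCODE M21 (55141 of 55401 with a symbol), which also gave positions and exon lengths. Counts were fitted in R 4.3.3 with edgeR 4.0.16 (filterByExpr, TMM, glmQLFit and glmQLFTest, all 6 libraries in one model with group alone, 3 residual degrees of freedom). A call was an adjusted p-value of 0.05 or less, with an absolute log2 fold change of 2 added as a second rule. Standard errors came from the F statistic, intervals are 95% intervals, Poisson intervals are exact, and CPM uses TMM library sizes. TC has 1 library, so no comparison with it has a replicate check on that side. The edgeR step was tested on simulated data. Alternatives were DESeq2 1.42.0, the groups compared alone, DESeq2 size factors, library totals, other filters, a replicate block and each library left out.

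The members and lists were chosen with earlier results of these data known. From each list the text names up to 4 genes with the largest absolute log2 fold change in TC versus EV among those with a mean of at least 1 CPM, called or not, and every gene of the family. Tpst1, Col6a3, Met, Tgfb1, Tgfb2, Igf1r, Gpc4, Sdc1, Sdc3 and Tgfbr3 were named outside this rule, after their values were seen, so that every gene called in their list is given. Marker genes were named where they were the only gene detected, or were called in TC versus EV or in TC + ATA versus TC. Promoters came from RefSeq (GRCm38.p6).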

Additional observations from a re-analysis of the deposited data

How the results depend on the processing

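Of 321 log2 fold changes of the members under the alternatives, 290 kept their direction and their side of the threshold, 11 became called, 12 lost their call and 8 changed sign. The changes of Dcn, Aspn, Prelp and Ogn in TC versus EV were called under all 12 alternatives, and that of Lum under 11. The sign changed where values were near 0. Bgn in TC versus EV (0.01) was −0.0899 with library totals, −0.0567 with the replicate block and −0.10 (without EV replicate 2) to 0.13 (without EV replicate 1) with a library left out. Omd in TC + ATA versus EV (0.02) was −0.0644 with library totals, −0.0713 with the block and −0.0687 (without TC + ATA replicate 2) to 0.17 (without TC + ATA replicate 1) with a library left out, and was also below 0 without EV replicate 2 or TC + ATA replicate 3.

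The comparison of TC + ATA with TC depended most on the fit. Of all genes, 108 were called, against 321 with DESeq2, 1428 with only the groups compared, 350 without a filter and 40 with the block, and leaving out a library gave 10 (without TC + ATA replicate 3) to 1469 (without EV replicate 1). The 3 members called higher became 5 with only the groups compared and 1 with the block, and 0 (without TC + ATA replicate 3) to 5 (without either EV library), and the 2 added were Bgn and Ogn. Between the EV libraries, the chi-square of counts per degree of freedom was 67.34. It was 6.231 to 7.035 between TC + ATA libraries and 25.05 to 27.13 between TC and TC + ATA libraries. The main fit shares one estimate of the spread over all groups. The cause of the dependence on the fit was not tested.

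Replicate numbers are shared by EV and TC + ATA libraries, but same-numbered libraries did not move together (correlations 0.0228 and −0.218 over 10424 genes), so the block is no pairing and left 1 residual degree of freedom. With it 3184 genes were called in TC versus EV (5191 without), Lum lost its call there (adjusted p = 0.0905), and in TC + ATA versus TC Aspn kept its call (0.0283) while Fmod (0.174) and Prelp (0.1000) lost theirs.

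Library totals in place of TMM moved the median of all genes in TC versus EV from −0.03 to −0.13, with 2072 genes higher and 3159 lower (2735 and 2456 with TMM), and gave 2711 higher and 4384 lower in TC + ATA versus EV (3340 and 3449 with TMM). The single TC library and the low counts of Podn, Omd, Lum and Fmod limit the precision of the values.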
